A study of Mus musculus with 48 samples.

Results

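The insulin-like growth factor (IGF) system was followed through its 10 core genes, the ligands Igf1 and Igf2, the type 1 receptor Igf1r and the 7 binding proteins Igfbp1 to Igfbp7. They were taken by gene symbol from the 56748 Ensembl identifiers of the count tables, and all 10 were found. The data are RNA-seq read counts from 3 organs of male littermate mice, the liver, brown fat (brown adipose tissue, BAT) and the white fat pad of the epididymis (eWAT). Each tissue gave 16 libraries, in 4 groups of 4, or 48 libraries in 12 groups in all. The groups cross genotype, hepAGT+/+ (WT) or hepAGT-/- (KO, deletion of the angiotensinogen gene Agt in hepatocytes), with housing, either room temperature of 20 to 22 °C (RT) or thermoneutrality, 30 °C (TN). All 12 groups, WT controls included, were fed a Western diet for 12 weeks (cholesterol 0.2%, milk fat 21%), and no group on another diet was compared. The age of the mice and the Cre driver of the deletion are not given in the sources used here.

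IGF-1 is a small peptide hormone related to insulin. Most of the circulating hormone is made by hepatocytes under the control of growth hormone, while fat, muscle and stromal cells also make it for local use. IGF-2 is a fetal growth factor that is largely shut off in adult rodent tissues. Both ligands signal through the IGF-1 receptor, a tyrosine kinase, and travel bound to IGF-binding proteins, which lengthen their life in blood, hold them near cells or keep them from the receptor. Igfbp1 and Igfbp2 are liver-made binding proteins that respond to insulin and feeding, IGFBP-3 carries most IGF in blood as a complex with the acid-labile subunit, and IGFBP-7 binds IGFs only weakly.

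Counted reads per library ran from 23711728 to 36503849 in liver, from 25304872 to 39383039 in BAT and from 28656921 to 43687848 in eWAT. Liver Agt, the targeted gene, lay between 125 and 207 CPM (read counts scaled to the library's effective total) in the 8 KO libraries and between 276 and 503 CPM in the 8 WT libraries, so the genotypes did not overlap and transcript remained in KO liver. The labelled tissues carried their defining markers, but some fat libraries also held transcripts of other tissues. By library totals, the summed CPM of 7 hepatocyte markers reached 2586 in BAT (KO TN replicate 2) and 4634 in eWAT (KO RT replicate 16), against 54050 to 92880 in liver. On the same scale the sum of 7 skeletal muscle markers ran from 1.32 to 6911 CPM across BAT libraries, and 1 eWAT library (WT RT replicate 18) held 776.6 CPM of epididymal markers. Marker sums given beside a result are on the same effective-total scale as the IGF values, unless library totals are named. Lists not given may also have moved. In bulk tissue, fewer cells of a type and less RNA per cell cannot be told apart.

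The 10 genes lie on 6 chromosomes of the GRCm38 assembly. Igf1 spans chr10:87858265-87937042 on the plus strand, Igf2 chr7:142650766-142666816 on the minus strand and Igf1r chr7:67952827-68233668 on the plus strand. Igfbp4 lies at chr11:99041244-99054392 and Igfbp6 at chr15:102144362-102149511, both on the plus strand, and Igfbp7 at chr5:77349240-77408041 on the minus strand. The other 4 binding proteins form 2 pairs of tail-to-tail neighbours. Igfbp1 (chr11:7197782-7202546, plus) and Igfbp3 (chr11:7206086-7213923, minus) are 3539 bases apart, and Igfbp2 (chr1:72824503-72852474, plus) and Igfbp5 (chr1:72857932-72874884, minus) are 5457 bases apart. In Igf2, 62.8% of the exon bases are shared with a same-strand gene model, Gm49394, and 7.03% of those of Igfbp7 with the antisense gene Polr2b. Whether the counting used strand is not given in the sources used here, so reads over those 85 bases of Igfbp7 cannot be told apart from reads of Polr2b. How reads over exons shared with Gm49394 were assigned is not given either, so Igf2 counts may be too low.

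The start regions of the 2 neighbour pairs are printed because, as described below, the members of each pair had different tissue patterns. Each window comes from RefSeq on GRCm38.p6 and runs from 250 bases before to 50 bases after the transcription start, 5′ to 3′ on the gene's own strand. All 10 genes had a window in that table. Capitals mark matches, on either strand, to the insulin response half-sites CAAAACA (on the other strand TGTTTTG) and CAAAATA (on the other strand TATTTTG), the HNF1 half-site GTTAAT, read from the other strand as ATTAAC, the E-box CACGTG and the TATA box TATAAA, read from the other strand as TTTATA.
Igfbp1, chr11:7197537-7197836, plus strand: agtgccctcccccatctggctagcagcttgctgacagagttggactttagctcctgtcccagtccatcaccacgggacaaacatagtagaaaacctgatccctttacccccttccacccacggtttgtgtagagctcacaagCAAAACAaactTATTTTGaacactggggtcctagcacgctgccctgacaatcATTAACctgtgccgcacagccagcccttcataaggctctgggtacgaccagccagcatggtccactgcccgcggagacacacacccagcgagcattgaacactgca
Igfbp3, chr11:7213874-7214173, minus strand: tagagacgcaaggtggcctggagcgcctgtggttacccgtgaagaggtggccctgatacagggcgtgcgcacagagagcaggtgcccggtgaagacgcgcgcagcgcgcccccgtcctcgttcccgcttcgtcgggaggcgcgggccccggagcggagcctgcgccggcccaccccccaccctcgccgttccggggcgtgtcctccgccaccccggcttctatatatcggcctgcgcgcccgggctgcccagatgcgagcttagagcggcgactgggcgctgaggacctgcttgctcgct
Igfbp2 (the first of 2 start sites), chr1:72824230-72824529, plus strand: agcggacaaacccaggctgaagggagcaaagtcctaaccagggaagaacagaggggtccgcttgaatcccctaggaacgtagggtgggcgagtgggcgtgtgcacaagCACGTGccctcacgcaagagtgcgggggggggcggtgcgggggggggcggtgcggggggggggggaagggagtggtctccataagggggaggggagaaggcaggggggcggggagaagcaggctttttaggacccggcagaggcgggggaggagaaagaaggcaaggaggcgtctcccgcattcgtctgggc
Igfbp5, chr1:72874816-72875115, minus strand: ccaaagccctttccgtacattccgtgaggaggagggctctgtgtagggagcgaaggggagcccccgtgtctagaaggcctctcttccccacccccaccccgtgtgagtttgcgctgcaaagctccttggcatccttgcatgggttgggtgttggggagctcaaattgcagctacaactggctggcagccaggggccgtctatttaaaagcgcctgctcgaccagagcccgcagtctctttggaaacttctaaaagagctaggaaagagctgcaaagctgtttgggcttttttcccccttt

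The Igfbp1 window held CAAAACA 108 bases, TATTTTG 97 bases and ATTAAC 56 bases before the start. Among all 32851 windows of this length, 6.28% held the CAAAACA form, 4.36% the CAAAATA form and 7.10% the HNF1 half-site. The Igfbp2 window held CACGTG 142 bases before the start, a motif found in 7.15% of windows. No match lay in the windows of Igfbp3 and Igfbp5. Of the windows of the other members, those of Igfbp4 (28 bases before the start) and Igfbp6 (148 bases) held the TATA box, found in 13.6% of windows. The GC content of the Igfbp3 and Igfbp2 windows was 71.7% and 67.0%, against 56.3% for Igfbp5, 54.3% for Igfbp1 and a median of 52.7% over all windows.

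The order of the IGF genes by level differed between the 3 tissues. On a scale of CPM per kilobase of exon, which allows genes to be compared, Igfbp4 (283) and Igfbp2 (228.5) were the highest in liver, followed by Igfbp7 (49.8), Igf1 (40.5) and Igfbp1 (36.1). In eWAT the order was Igfbp4 (125), Igfbp7 (123), Igfbp5 (69.2), Igfbp6 (68.6) and Igf1 (30.0), and Igfbp2 had 5.15. In BAT Igfbp7 led with 59.1, followed by Igfbp5 (15.4), Igfbp4 (10.9), Igfbp6 (8.75), Igfbp3 (5.33) and Igf1 (2.20). The receptor Igf1r was low per kilobase in all tissues, at 0.191 in liver, 0.861 in BAT and 0.862 in eWAT.

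**Figure D1:**
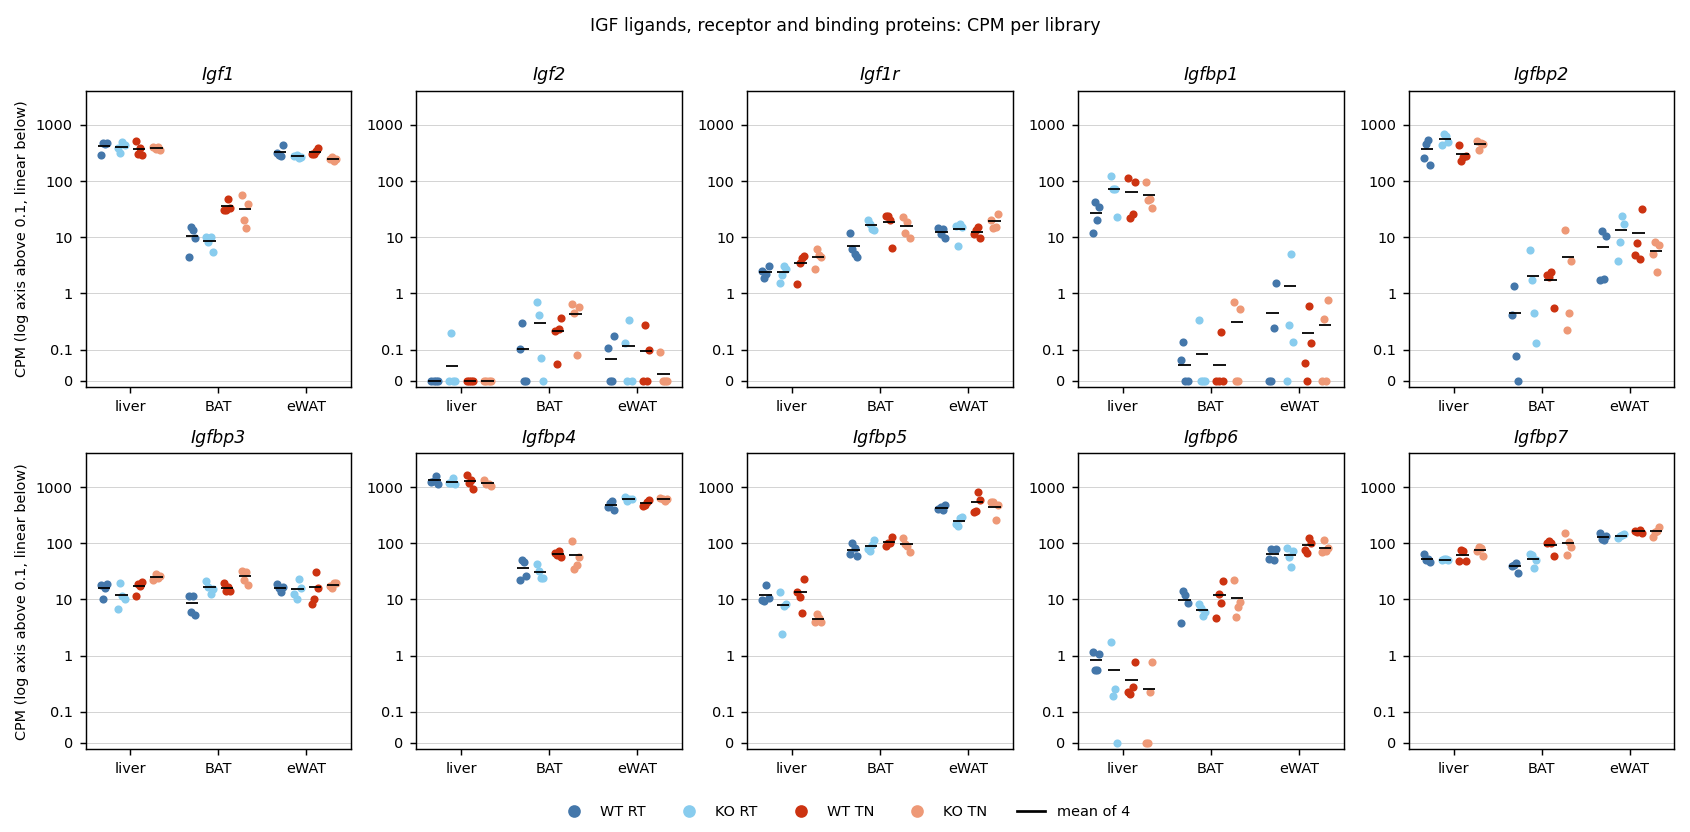
CPM (vertical axis, logarithmic above 0.1 and linear below) of each of the 10 genes in every library, by tissue, genotype and housing, with a line at the mean of each group of 4. Igfbp1 and Igfbp2 are high in liver, Igfbp5 and Igfbp6 are high in eWAT, and Igf1 is high in liver and eWAT and low in BAT.

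Tissue levels were compared in 1 model over all 48 libraries, averaging the 4 combinations of genotype and housing, and a gene is called where its edgeR quasi-likelihood p, adjusted by the Benjamini-Hochberg method over all genes tested, is under 0.05. All 10 genes passed the filter on low counts in that model. Of the 10, 8 were called between liver and BAT (4 higher and 4 lower in liver), where 68.6% of all 21910 genes tested were called, 31.6% as higher and 37% as lower. All 10 were called between liver and eWAT (5 higher and 5 lower in liver; background 73.8%, 35.5% higher and 38.3% lower), and 7 between BAT and eWAT (1 higher and 6 lower in BAT; background 60.3%, 29.2% higher and 31.1% lower). With backgrounds this high, the counts say little of the IGF genes as a set, and the sizes differ far more than the counts.

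Igf1, the main ligand, ran from 293 to 519 CPM in liver (median 401), from 4.54 to 55.8 CPM in BAT (median 14.8) and from 227 to 447 CPM in eWAT (median 289). The BAT libraries lay below all libraries of the other tissues. Igf1 was 24.1-fold higher in liver than in BAT (log2 difference 4.59 ± 0.16 SE, adjusted p = 7.949e-27) and 1.96-fold higher in liver than in eWAT (0.97 ± 0.14 SE, adjusted p = 5.7e-08). The second difference depends on the scaling between tissues. By library totals alone it was 0.44 (adjusted p = 0.00304), with the median of all genes moving from -0.05 to -0.57.

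Igf2, the fetal ligand, had few assigned reads. It had 140 reads in 13 of the 16 BAT libraries, 41 in 7 eWAT libraries and 6 in 1 liver library. A count of 0 allows up to 3 counts, which stand for 0.0768 to 0.156 CPM across BAT libraries, 0.0684 to 0.104 CPM in eWAT and 0.0828 to 0.138 CPM in liver. The highest Igf2 value of any library was 0.713 CPM. The order BAT, eWAT, liver was called at each step (adjusted p = 0.0269 for BAT against eWAT), but no fold is given for counts this low. The step from BAT to eWAT was lost without BAT KO RT replicate 9 (adjusted p = 0.057) or BAT WT RT replicate 15 (0.0824), by DESeq2 (0.057), without a filter on low counts (0.0529) and by library totals (0.0699), and the step from eWAT to liver was lost by DESeq2 (0.0784) and without eWAT KO TN replicate 3.

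Igf1r, the signalling receptor, was 4.04-fold lower in liver than in BAT and 3.20-fold lower than in eWAT (log2 differences -2.02 ± 0.18 and -1.68 ± 0.18 SE). Medians were 2.88 CPM in liver, 13.8 CPM in BAT and 14.7 CPM in eWAT. BAT and eWAT, neighbours in this order, did not pass the test (log2 difference 0.34, 95% interval -0.00 to 0.68, adjusted p = 0.0833). Of the 3 tissues liver had the highest Igf1 and the lowest Igf1r level.

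The binding proteins split by tissue. Igfbp1 had 26623 reads in liver, 324 in eWAT and 70 in BAT, where 10 of the 16 libraries had none. It was called as higher in liver than in either fat depot, but no fold is given for counts this low, since the log2 difference ran from 8.80 to 10.27 for BAT and from 6.85 to 8.24 for eWAT over the alternatives run. Igfbp2 was 266-fold higher in liver than in BAT and 66.6-fold higher than in eWAT. Igfbp4, a binding protein that holds IGF from its receptor until it is cleaved, was 29.4-fold higher in liver than in BAT and 3.28-fold higher than in eWAT. Igfbp5 and Igfbp6 ran the other way, with Igfbp5 9.68-fold and Igfbp6 19.1-fold lower in liver than in BAT, and 31.9-fold and 113.7-fold lower than in eWAT. The Igfbp6 folds are rough, since liver held only 241 of its reads, with 3 libraries at 0. Its log2 difference to eWAT was -6.83, against -7.35 by library totals and -7.47 with the replicate number as a block. IGFBP-5 is abundant in connective and muscle tissue, and IGFBP-6 has a preference for IGF-2.

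Igfbp3 and Igfbp7 were the most even across tissues. Igfbp3 had medians of 18.6, 15.9 and 16.0 CPM in liver, BAT and eWAT. Only liver against eWAT was called for it (1.48-fold higher, adjusted p = 0.000856), and that difference was 0.03 on the log2 scale (adjusted p = 0.876) by library totals alone. BAT against eWAT was 0.32 (adjusted p = 0.0602) and -0.09 by library totals. It passed without any 1 of BAT KO RT replicate 14, BAT WT RT replicates 15 and 18, eWAT KO RT replicate 16, eWAT WT TN replicate 8 and liver KO RT replicate 10 (adjusted p 0.00437 to 0.0488). Igfbp7, found in vessel walls, was highest in eWAT, by 1.72-fold over liver and 1.68-fold over BAT, while liver and BAT did not pass the test (log2 difference -0.04, 95% interval -0.24 to 0.16). The members of each neighbour pair thus differed in the size or the direction of their tissue difference. Between liver and eWAT, Igfbp1 differed by 7.41 on the log2 scale, from few eWAT reads, and Igfbp3 by 0.57 in the same direction. Igfbp2 differed by 6.06 and Igfbp5 by -4.99.

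**Figure D2:**
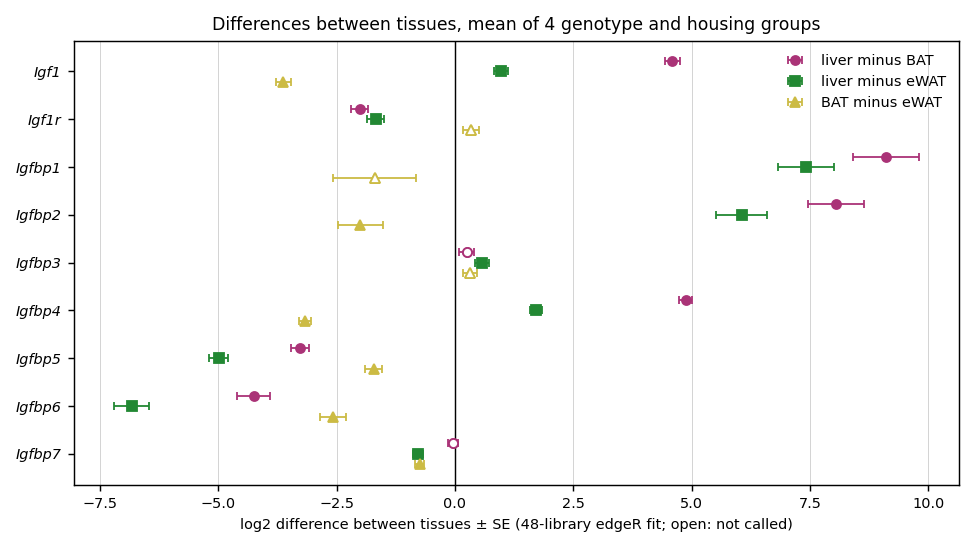
Log2 differences between tissues (horizontal axis) with standard errors for 9 genes from the 48-library model; Igf2 is left out because its counts are too low for a fold. Igf1, Igfbp1, Igfbp2 and Igfbp4 lie to the right for both liver comparisons and Igf1r, Igfbp5 and Igfbp6 to the left; open symbols were not called.

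Low levels of the 2 liver binding proteins in BAT moved with hepatocyte transcripts. In each of the 4 BAT groups the library with the most Igfbp2 was also the one with the highest hepatocyte sum. In eWAT this held in KO RT and KO TN but not in WT RT or WT TN. In eWAT WT TN, replicate 8 had the highest hepatocyte sum (1520 CPM on the effective-total scale) and the lowest Igfbp2 (4.17 CPM). The most Igfbp2 of that group, 31.7 CPM, was in replicate 23. By library totals alone, BAT Igfbp2 ran from 15.8 CPM at 2586 CPM of markers in KO TN replicate 2 to 0 at 15.6 CPM of markers in WT RT replicate 18. If each fat library held the same ratio of Igfbp2 to the 7 markers as liver, the level so computed would be a median of 106% of the measured level in BAT (range 21.5 to 362%) and 41.5% in eWAT (1.83 to 195%). For Igfbp1 the median was 188% in BAT, over the libraries with any reads. For Igf1 it was 7.02% in BAT, with a highest value of 40.4%, and for Igfbp4 9.55%, with a highest value of 34.6%. All 7 markers were detected in each group of both fat depots. Which cells gave the Igfbp1 and Igfbp2 reads of BAT and eWAT was not tested.

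**Figure D3:**
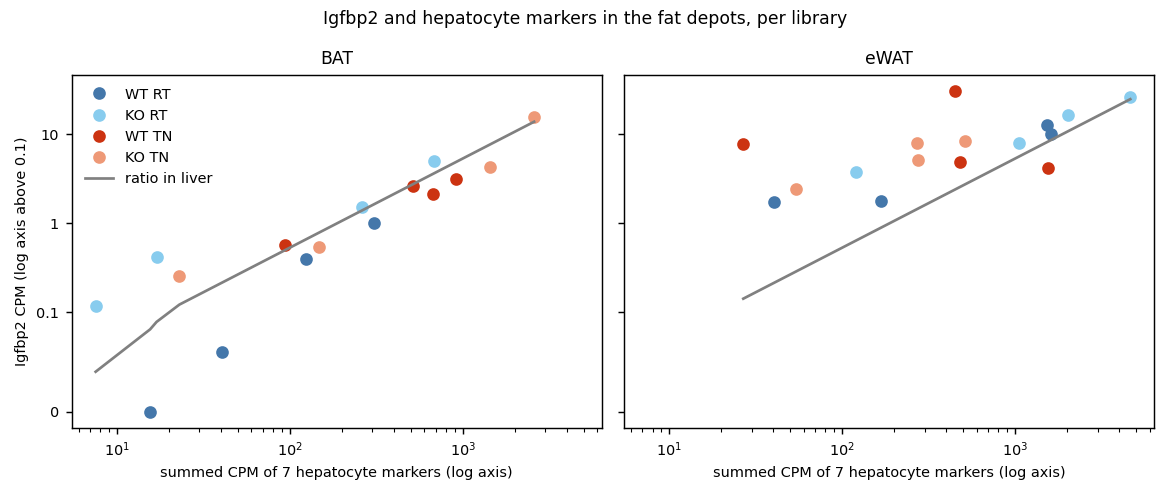
Igfbp2 CPM (vertical axis, logarithmic above 0.1) against the summed CPM of 7 hepatocyte markers (logarithmic horizontal axis) in each BAT and eWAT library, by group. The grey line is the ratio of the 2 in liver. BAT libraries with reads lie on both sides of it, where the line is 21.5 to 362% of the measured level. Most eWAT libraries with low marker sums lie above it.

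Igf1, Igfbp3, Igfbp4 and Igfbp7 rose in BAT with housing temperature. At thermoneutrality brown fat is not driven by cold, and the question of the housing comparison is how that alters each tissue under the Western diet. Averaged over genotypes, 4 of the 9 members tested rose in BAT from RT to TN (Igf1, Igfbp7, Igfbp4 and Igfbp3) and none fell. Over all 18032 genes tested 38.5% were called, 19.5% as higher. The count of called members is close to the share called in either direction and is no result about the IGF genes as a set. The members' median log2 change was 0.78, against 0.09 over all genes. In WT mice alone 4 rose (Igf1, Igf1r, Igfbp3 and Igfbp7; background 32.5%, 15.9% higher), and in KO mice 2 (Igf1 and Igfbp7; background 15.2%, 6.64% higher).

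Igf1 in BAT was 4.54, 15.2, 13.3 and 9.59 CPM in WT RT and 30.3, 30.6, 47.7 and 33.7 CPM in WT TN libraries. In KO mice it was 10.2, 8.27, 10.3 and 5.51 CPM at RT and 55.8, 20.5, 14.4 and 39.0 CPM at TN. No RT library reached the level of a TN library of its genotype. The rise was 3.56-fold over both genotypes (log2 1.83 ± 0.30 SE, adjusted p = 0.000221), 1.74 ± 0.42 in WT (adjusted p = 0.00575) and 1.92 ± 0.42 in KO (adjusted p = 0.00689). Without KO TN replicates 2 and 5, the libraries over 1000 CPM of hepatocyte markers, the KO rise was 1.05 (adjusted p = 0.108), and without the 4 libraries over 3000 CPM of muscle markers it was 1.67 (adjusted p = 0.0575).

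Igfbp7 in BAT was 39.0, 41.8, 44.8 and 30.2 CPM in WT RT and 99.6, 110, 103 and 59.2 CPM in WT TN libraries. In KO it was 63.7, 62.9, 36.4 and 51.3 CPM at RT and 153, 60.9, 104 and 84.3 CPM at TN. The WT groups did not overlap, and the KO groups overlapped through 1 TN library. The rise over both genotypes was 2.12-fold (log2 1.08 ± 0.18 SE, adjusted p = 0.000178). The KO rise alone (0.91 ± 0.26 SE, adjusted p = 0.0234) was lost without KO TN replicate 2 (adjusted p = 0.0912), KO RT replicate 14 (0.0728) or KO RT replicate 19 (0.0631).

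Igfbp4 in BAT was 22.4, 51.2, 47.3 and 25.8 CPM in WT RT and 67.1, 61.8, 72.2 and 56.9 CPM in WT TN. KO libraries had 43.5, 32.3, 24.6 and 24.5 CPM at RT and 110, 35.6, 40.4 and 57.5 CPM at TN. WT groups were apart and KO groups overlapped. The rise over both genotypes was 1.85-fold (log2 0.89 ± 0.25 SE, adjusted p = 0.00994). Within a genotype the change did not pass, at 0.82 in WT (adjusted p = 0.0858, or 0.0245 without KO TN replicate 2) and 0.96 in KO (adjusted p = 0.0776, or 0.0317 without KO TN replicate 3). Without the hepatocyte-rich libraries, KO TN replicates 2 and 5, the KO change was 0.30 (adjusted p = 0.625) and the WT change 0.83 (adjusted p = 0.0156). By DESeq2 both passed, WT with an adjusted p of 0.0304 and KO with 0.0149. The WT change also passed by edgeR with only the 8 libraries compared (adjusted p = 0.0238).

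Igfbp3 in BAT was 11.7, 5.99, 11.4 and 5.37 CPM in WT RT and 19.5, 14.3, 16.6 and 14.0 CPM in WT TN libraries. KO libraries had 21.1, 16.4, 12.6 and 15.3 CPM at RT and 32.2, 22.0, 30.5 and 18.2 CPM at TN. Again the WT groups were apart and the KO groups overlapped. The rise was 1.71-fold over both genotypes (log2 0.78 ± 0.18 SE, adjusted p = 0.00214).

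Igf1r in BAT rose in WT (log2 1.43 ± 0.41 SE, adjusted p = 0.0142), from 11.9, 6.23, 5.08 and 4.43 CPM at RT to 24.3, 24.1, 19.9 and 6.42 CPM at TN. The groups overlapped through the library at 6.42 CPM, WT TN replicate 24. In KO mice it stood at 20.3, 17.3, 14.2 and 13.5 CPM at RT and 23.2, 11.7, 18.9 and 9.73 CPM at TN. Averaged over genotypes its change was 0.70 (adjusted p = 0.0643), which passed without WT TN replicate 24 (0.84, adjusted p = 0.00644), WT RT replicate 12 (0.90, adjusted p = 0.0142) or KO TN replicate 5 (0.78, adjusted p = 0.0439). It also passed by DESeq2 (adjusted p = 0.0197), and by edgeR without the 4 libraries over 3000 CPM of muscle markers (0.0448). Igfbp5 (59.3 to 128 CPM), Igfbp6 (3.83 to 21.8 CPM), Igfbp2 and Igf2 did not pass in BAT in any of these comparisons, and Igfbp1 did not pass the filter. The change of Igfbp5 in WT (adjusted p = 0.0826) passed without WT RT replicate 15 (log2 0.62, adjusted p = 0.0354).

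**Figure D4:**
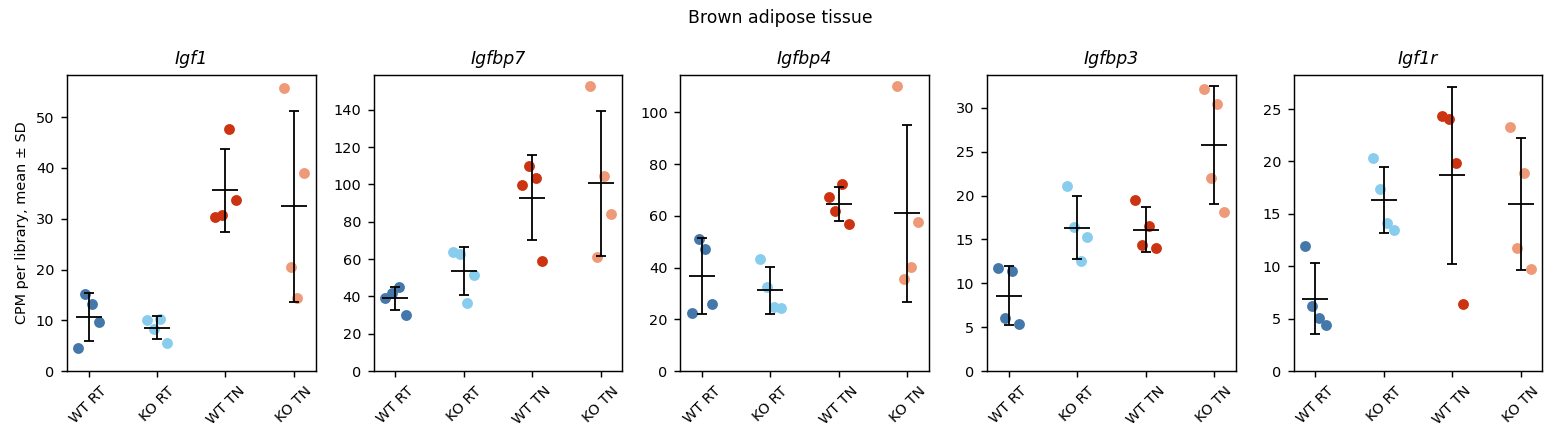
CPM in every BAT library (points) with group mean and SD (n = 4) for the 5 members called in a BAT housing comparison. Igf1 lies between 4.54 and 15.2 CPM at RT and between 14.4 and 55.8 CPM at TN.

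Markers of several other cell types moved with housing in BAT. The summed CPM of 7 fibroblast and progenitor markers was 256 to 520.1 in RT libraries and 692 to 1264 in TN libraries. Macrophage markers summed to 49.6 to 169 CPM in WT RT, 62.6 to 84.6 in KO RT, 222 to 395 in WT TN and 159 to 247 in KO TN, apart within each genotype. The sum of 6 brown adipocyte markers moved the other way, from 8008 to 17190 CPM at RT and from 2743 to 6754 CPM at TN, without overlap. Smooth muscle and pericyte markers had means of 451 CPM in WT RT and 511 in KO RT, against 644 in WT TN and 638 in KO TN, with overlap in WT. Endothelial markers summed to 202 to 470.0 CPM in WT RT, 446 to 1089 in KO RT, 309 to 895 in WT TN and 605 to 1077 in KO TN, so their KO groups overlapped widely. Hepatocyte markers had means of 151 CPM in WT RT and 280 in KO RT, against 458 in WT TN and 900 in KO TN. Skeletal muscle markers had means of 172 CPM in WT RT and 1291 in KO RT, against 2117 in WT TN and 1680 in KO TN. Both of these sums overlapped between housings in each genotype. In the 4 groups all genes of these lists were detected. The part of these markers in the rise of Igf1 and the 3 binding proteins was not tested.

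Genotype gave no called IGF gene in BAT. By edgeR 0 of the 9 members passed at RT (background 0.0887%), 0 at TN (background 0%) and 0 over both housings (background 0%). An unadjusted p under 0.05 was found for 2, 1 and 1 members, and for 3507, 945 and 2505 of all 18032 genes tested. DESeq2 called 2, 0 and 1 members. Each background is a share of edgeR calls, and the share of all genes called by DESeq2 is not given here. The members with the smallest p at RT were Igfbp3 (log2 0.92 ± 0.26 SE, adjusted p = 0.108) and Igf1r (1.24 ± 0.41 SE, adjusted p = 0.135), whose KO libraries all lay above the WT libraries. Without WT RT replicate 12, which had the highest endothelial sum of its group, they passed (adjusted p = 0.0171 and 0.0211), and Igfbp3 passed over both housings (0.89, adjusted p = 0.0177). The interaction of genotype and housing was called for 0 members by edgeR and by DESeq2 (background 0%). An unadjusted p under 0.05 was found for 1 member and for 1832 of all 18032 genes.

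In eWAT genotype changed the ligand Igf1 and the binding protein Igfbp4, both by small amounts. Over both housings 2 of the 9 members tested were called, Igf1 as lower and Igfbp4 as higher in KO mice, where 8.46% of 18933 genes were called (2.74% higher and 5.72% lower). At RT alone edgeR called 0 members (background 4.34%) and at TN alone 0 (background 0.586%). In each, 2 members had an unadjusted p under 0.05, as did 3358 of all 18933 genes at RT and 2603 at TN. DESeq2 called 2 members at RT and 1 at TN, and its share over all genes is not given here.

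Igf1 in eWAT was 311, 294, 278 and 447 CPM in WT RT and 283, 297, 262 and 266 CPM in KO RT libraries. At TN it was 300.1, 303, 338 and 388 CPM in WT and 252, 265, 227 and 247 CPM in KO. The genotypes overlapped at RT and did not overlap at TN. The level was 1.27-fold lower in KO over both housings (log2 -0.34 ± 0.09 SE, adjusted p = 0.0291). This call was lost without any 1 of 8 libraries, KO RT replicates 9, 16 and 19, KO TN replicates 5 and 21, WT RT replicate 18 and WT TN replicates 8 and 23, with adjusted p between 0.0511 and 0.0791. The value without WT RT replicate 18, the library with epididymal transcripts and the highest Igf1, was -0.24 (adjusted p = 0.0643).

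Igfbp4 in eWAT was 438, 513, 565 and 387 CPM in WT RT, 675, 563, 613 and 615 CPM in KO RT, 453, 476, 541 and 586 CPM in WT TN and 638, 604, 573 and 621 CPM in KO TN. KO libraries overlapped WT only by 1 WT library in each housing. The rise was 1.24-fold (log2 0.31 ± 0.09 SE, adjusted p = 0.0297). It was lost without KO RT replicate 9 (adjusted p = 0.0509), WT RT replicate 18 (0.0538), WT TN replicate 6 (0.0599) or WT TN replicate 7 (0.0568). At RT alone the change of 0.37 (adjusted p = 0.0867) passed without WT RT replicate 15 (0.48, adjusted p = 0.0478). In these comparisons the sum of 7 macrophage markers was 819 to 1233 CPM in WT RT, 643 to 933 in KO RT, 1275 to 2200 in WT TN and 946 to 1154 in KO TN, with all 7 genes detected. Its part in either change was not tested.

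Igfbp5 in eWAT was 405, 440, 387 and 474 CPM in WT RT and 220, 205, 287 and 293 CPM in KO RT libraries. All KO libraries lay below all WT libraries, but the difference did not pass (log2 -0.76 ± 0.26 SE, adjusted p = 0.113; DESeq2 adjusted p = 0.0239). At TN the values were 356, 374, 808 and 597 CPM in WT and 534, 541, 256 and 478 CPM in KO, and the groups overlapped. The library at 808 CPM, WT TN replicate 8, had the highest fibroblast and progenitor sum of its group (5904 CPM). Its Agt was 8.97 CPM, against 58.8 to 134 CPM in the rest of the group. The part of either in the Igfbp5 value was not tested. Igf1r, with 6.91 to 26.3 CPM, had a change of 0.38 over both housings (adjusted p = 0.228), which passed without KO RT replicate 10 (0.51, adjusted p = 0.0402). Igfbp1, Igfbp2, Igfbp3, Igfbp6 and Igfbp7 did not pass in eWAT by genotype.

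Housing changed no IGF gene of eWAT past the threshold. By edgeR 0 of 9 members were called in WT (background 0%), 0 in KO (background 1.74%) and 0 over both genotypes (background 2.22%). An unadjusted p under 0.05 was found for 1, 2 and 3 members, and for 1324, 3311 and 3109 of all 18933 genes. DESeq2 called 0, 1 and 2 members, and its share over all genes is not given here. Igfbp7 had the smallest adjusted p over both genotypes (log2 0.30, adjusted p = 0.0718). It was 115 to 155 CPM at RT and 154 to 175 CPM at TN in WT mice. The change of Igfbp5 was 0.59 over both genotypes (adjusted p = 0.110) and 0.85 in KO (adjusted p = 0.105), and both passed without KO TN replicate 5 (0.68 and 1.04, adjusted p = 0.0277 and 0.0244). The interaction was called for 0 members by edgeR and DESeq2 (background 0%), and none had an unadjusted p under 0.05, against 1439 of all 18933 genes.

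In liver, the source of circulating IGF-1, no IGF gene was called. By edgeR the members called by genotype were 0 of 9 at RT (background 0.0853%), 0 at TN (background 3.18%) and 0 over both housings (background 5.19%). In each of these 2 members had an unadjusted p under 0.05, as did 1799, 3099 and 3466 of all 17594 genes. DESeq2 called 0, 1 and 2 members. By housing edgeR called 0 in WT (background 0.0227%), 0 in KO (background 0.114%) and 0 over both genotypes (background 0.279%). An unadjusted p under 0.05 was found there for 0, 3 and 3 members, and for 1276, 1849 and 1927 of all genes. DESeq2 called 0, 2 and 0. The interaction was called for 0 (background 0%), also by DESeq2, with 1 member and 1290 of all genes at an unadjusted p under 0.05. The share of all genes called by DESeq2 is not given here.

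Liver Igf1 did not pass in any comparison of genotype or housing. It was 293, 481, 452 and 486 CPM in WT RT, 392, 322, 505 and 432 in KO RT, 519, 306, 387 and 294 in WT TN and 410, 373, 410 and 357 in KO TN, and all groups overlapped. The genotype difference over both housings was -0.01 on the log2 scale, with a 95% interval from -0.27 to 0.26. Igfbp4 stayed between 931 and 1680 CPM in all 16 libraries.

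Igfbp5 in liver was 13.6, 10.9, 5.74 and 23.4 CPM in WT TN and 3.90, 5.44, 4.73 and 3.93 CPM in KO TN libraries, which did not overlap. The difference did not pass at TN (log2 -1.57 ± 0.44 SE, adjusted p = 0.0631) or over both housings (-1.09 ± 0.31 SE, adjusted p = 0.0520). It passed at TN without WT TN replicate 7 (-1.83, adjusted p = 0.0351), KO RT replicate 9 (0.0425) or KO RT replicate 10 (0.0169), and over both housings without the same 3 libraries. By DESeq2 it passed at TN (adjusted p = 0.00444) and over both housings (0.00368). By edgeR it also passed at TN with only the 8 libraries compared (0.0271). Over both housings it passed with the filter at 1 CPM in 4 libraries (0.0424). At TN, macrophage markers summed to 177 to 231 CPM in WT and 208 to 532 in KO liver, and 7 B cell and lymph node markers to 3.71 to 7.11 CPM in WT and 7.82 to 13.1 in KO. The sum of 6 hepatic stellate cell markers was 115 to 121 CPM in WT RT and 57.8 to 105 in KO RT liver, without overlap. At TN it was 88.8 to 131 CPM in WT and 91.15 to 148 in KO, with overlap. All genes of these lists were detected, and their part in the Igfbp5 values was not tested. Igfbp5 thus lay lower in KO than WT in liver, and in eWAT at RT, without passing the main edgeR test in either.

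Igfbp2 in liver was 255, 466, 549 and 194 CPM in WT RT, 449, 695, 642 and 496 in KO RT, 431, 225, 270 and 280 in WT TN and 513, 353, 484 and 452 in KO TN. KO means were higher in both housings (570 against 366 CPM and 450.3 against 302 CPM), with overlap in each. The difference over both housings did not pass (log2 0.61 ± 0.20 SE, adjusted p = 0.1004), and passed without WT RT replicate 15 (0.74, adjusted p = 0.0383). DESeq2 called it (adjusted p = 0.01235). Igfbp1, which changes within hours of feeding, ran from 11.9 to 42.2 CPM in WT RT and from 22.9 to 126 CPM in KO RT. Its difference at RT was 1.44 on the log2 scale (adjusted p = 0.486).

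Igfbp3 in liver, made mainly outside hepatocytes, was 6.86, 19.8, 11.5 and 10.3 CPM in KO RT and 22.2, 28.9, 23.9 and 25.8 CPM in KO TN libraries, without overlap. The difference did not pass (log2 1.05 ± 0.26 SE, adjusted p = 0.0914), and passed without KO RT replicate 10 (1.40, adjusted p = 0.0240), as did the change over both genotypes (0.58, adjusted p = 0.181, and 0.76, adjusted p = 0.0474, without that library). DESeq2 called the KO difference (adjusted p = 0.00783). Igfbp7 had the same order, 49.5 to 52.8 CPM in KO RT and 60.0 to 86.9 CPM in KO TN (log2 0.56, adjusted p = 0.135; DESeq2 adjusted p = 0.0369). Endothelial markers summed to 148 to 184 CPM in KO RT and 173 to 256 in KO TN liver, and macrophage markers to 124 to 216 and 208 to 532 CPM. Fibroblast and progenitor markers summed to 105 to 149 CPM in KO RT and 164 to 306.5 in KO TN liver, without overlap. All 7 genes of each list were detected, and their part in these values was not tested.

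Whether an effect differed between tissues was tested in the 48-library model. The housing effect differed between tissues for 3 of the 10 members, Igf1 (adjusted p = 6.582e-07), Igfbp4 (0.00371) and Igfbp7 (0.00374), where 18.3% of all genes were called. For Igf1 the 3 effects were 1.83 in BAT, -0.14 in liver and -0.08 in eWAT on the log2 scale. For Igfbp7 they were 1.08, 0.38 and 0.30, and for Igfbp4 0.89, -0.06 and 0.05. The test was also passed by Igfbp5 without liver KO RT replicate 10 (adjusted p = 0.0246) or liver WT TN replicate 24 (0.0285), and by Igfbp6 without liver KO TN replicate 22 (0.0354). The genotype effect differed for 0 members by edgeR (background 3.88%), with 2 at an unadjusted p under 0.05 and 1 called by DESeq2. For the last 2 counts the share of all genes is not given here. Igfbp5 had the smallest adjusted p (0.0946), and passed without liver KO RT replicate 9 (0.0353) or liver WT TN replicate 7 (0.0420). The eWAT calls of Igf1 and Igfbp4 are thus not shown to be particular to eWAT.

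**Figure D5:**
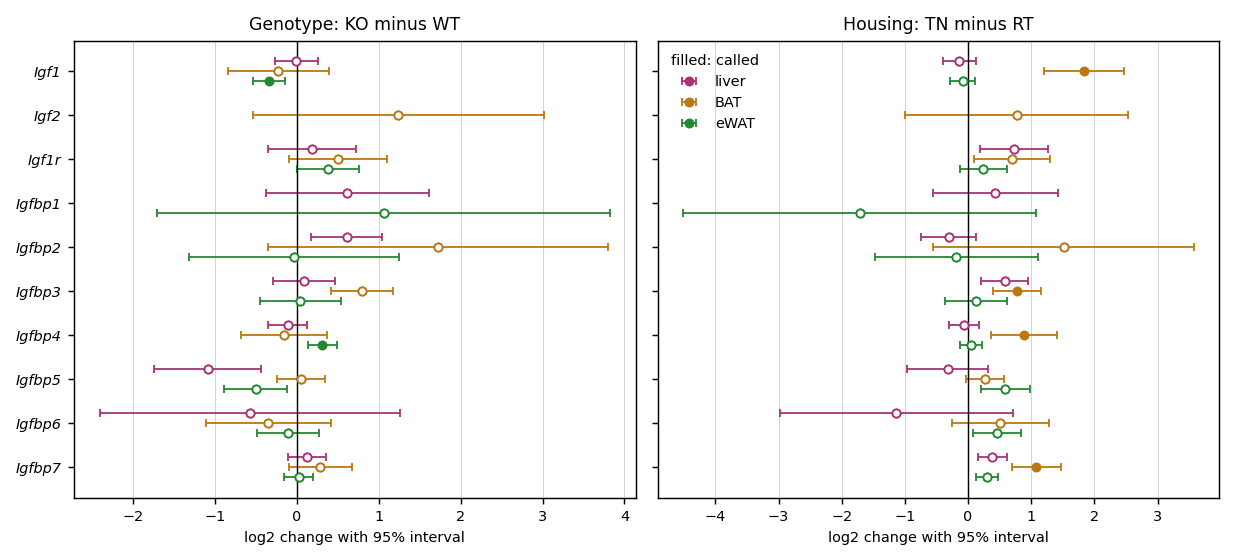
Log2 change with 95% interval of each member in liver, BAT and eWAT, for genotype over both housings (left) and housing over both genotypes (right); filled points were called. On the left Igf1 and Igfbp4 in eWAT are filled, and on the right Igf1, Igfbp3, Igfbp4 and Igfbp7 in BAT.

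Around these genes lies a list of 13 genes that set IGF availability, among them the acid-labile subunit gene Igfals, the stanniocalcins Stc1 and Stc2, which inhibit the proteases that cleave binding proteins, and the proteases Adam12 and Htra1. From RT to TN in BAT, over both genotypes, 5 of its 9 tested genes were called, 4 as higher (background 38.5%, 19.5% higher), with a median log2 change of 0.41 against 0.09 over all genes. Stc2 rose by 2.97 on the log2 scale from group means of 0.243 CPM in WT and 0.204 in KO to 1.58 and 2.04 CPM, and Stc1 rose by 1.60. At such low levels 1 library moves the Stc2 value, which was 4.52 without WT RT replicate 15. Igf2bp2, an RNA-binding protein, fell by 0.52, a call lost without any 1 of 11 libraries, all but KO RT replicates 10 and 19, KO TN replicate 3, WT RT replicate 17 and WT TN replicate 24 (adjusted p 0.0529 to 0.104). In eWAT 3 of 10 were called by genotype over both housings, all lower in KO (background 8.46%, 5.72% lower), with a median of -0.30 against 0.01 over all genes. Adam12 fell by 1.34, Igfals by 0.82 and Htra1 by 0.43, and all 3 kept their call in each alternative run. Igfals was 92.7 CPM in WT RT, 52.6 in KO RT, 115 in WT TN and 65.2 in KO TN eWAT, beside 61.5 to 66.9 CPM in the liver groups. In liver 1 of 7 was called by genotype (background 5.19%), Igf2r, the clearance receptor of IGF-2, which fell by 0.38 (adjusted p = 0.0481) and was lost without any 1 of 12 libraries, all but KO RT replicate 9, KO TN replicate 5, WT RT replicate 18 and WT TN replicate 7 (adjusted p 0.0537 to 0.106).

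Of 8 genes of the growth hormone axis, which drives Igf1, 4 were called in BAT by housing over both genotypes, 3 as higher (background 38.5%, 19.5% higher), with a median log2 change of 0.28. Socs3, an inhibitor of cytokine and growth hormone signalling, rose by 2.27 (adjusted p = 4.609e-06). Stat5a, a signal transducer of growth hormone listed beside Stat5b, fell by 0.46 (adjusted p = 0.00362). Without the 4 muscle-rich libraries the fall of Stat5a was 0.34 (adjusted p = 0.0680). In liver edgeR called 0 of the 8 by genotype over both housings (background 5.19%). An unadjusted p under 0.05 was found for 1 of them and for 3466 of all 17594 genes. In eWAT 1 was called by genotype, as higher (background 8.46%). Of 12 tested genes of insulin and IGF receptor signalling, 4 were called in BAT by housing over both genotypes, all higher (background 38.5%, 19.5% higher), with a median of 0.19. In eWAT 2 were called by genotype (background 8.46%), Irs1, a docking protein of both receptors, which rose by 0.68 (adjusted p = 0.000598), and the insulin receptor Insr, which rose by 0.36 (adjusted p = 0.00600). In liver 1 was called (background 5.19%), Pik3r1, a regulatory subunit of PI 3-kinase, which fell by 0.52 in KO (adjusted p = 0.00659). Of 8 fasting-responsive genes, 1 was called in liver by genotype (background 5.19%), Cpt1a, of fatty acid oxidation, which fell by 0.64 (adjusted p = 0.00112). In eWAT 1 was called (background 8.46%), Ppargc1a, a coactivator of mitochondrial genes, which rose by 0.90 (adjusted p = 0.0141), and 2 were called in BAT by housing (background 38.5%).

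The genes with the most similar pattern were sought for each member in the tissue of its highest mean CPM, by Pearson r of log2(CPM + 0.5) over the 16 libraries of that tissue. For Igf1r that choice was close, with 14.48 CPM in eWAT and 14.46 CPM in BAT, and the 48-library model placed BAT higher without passing the test. These are descriptions over libraries that share group, depth and cell mixture. In liver, Igf1 was most like Igfals (r = 0.768, Spearman rho = 0.724), and Igfbp4 was most like Chp1 (0.889, rho = 0.809), followed by Igfals (0.869, rho = 0.676). Igfbp1 was most like Tat (0.835, rho = 0.821), a liver enzyme of tyrosine breakdown, Igfbp2 most like Ifitm3 (0.932, rho = 0.862) and Igfbp3 most like Vsir (0.870, rho = 0.729). In eWAT, Igfbp5 was most like Rab11fip4 (0.892, rho = 0.885), Igfbp6 most like Nbl1 (0.858, rho = 0.794), Igfbp7 most like Adam19 (0.770, rho = 0.815) and Igf1r most like Nfat5 (0.871, rho = 0.735). These were the highest of 9425 genes compared in liver and 10561 in eWAT.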

How the data were processed

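Raw counts per gene were deposited by the authors, 1 table per library, with no normalization. Per the labels' protocols, RNA was extracted with a Maxwell kit and sequenced in paired ends on a NovaSeq instrument. The submitters' processing notes name fastp, STAR 2.6.1d, featureCounts 1.5.0-p3 and the build GRCm38 (mm10), and the annotation and strand setting are not given in the sources used here. Of the 56748 identifiers, 52073 had a symbol in GENCODE M21 on GRCm38, which also gave positions and exon lengths. Count totals per library ranged from 23711728 to 43687848.

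Genes were filtered (filterByExpr, minimum count 10), scaled by TMM and tested with edgeR 4.0.16 in R 4.3.3, by its robust quasi-likelihood test with 1 mean per group and Benjamini-Hochberg adjustment over all genes tested (17594 in liver, 18032 in BAT, 18933 in eWAT, 21910 over all 48 libraries). The 4 groups of a tissue share 1 estimate of the spread. P-values measure the spread between libraries that the labels call biological replicates. CPM are scaled by TMM within a tissue. Tests between tissues were made in the 48-library model, and CPM of different tissues set side by side are descriptions that carry each tissue's own scaling. Marker sums that set a limit (1000 or 3000 CPM), and the hepatocyte ratio, use library totals. Igfbp1 (BAT) and Igf2 (liver and eWAT) did not pass the filter in those tissues, so 9 members were tested in each. Alternatives were other scalings and filters, DESeq2 1.42.0, only the 8 libraries compared, fits with each library left out in turn, and a replicate block. The script was tested on simulated data.

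The members, the 4 lists of pathway genes (42 genes) and the 12 lists of cell type markers were chosen with earlier results of these data known. All members are named. Over the pathway lists together, the 3 called genes with the largest change in each direction are named, given a mean of at least 1 CPM, in the comparisons over both genotypes or both housings. For likeness, the gene with the highest r is named, among those whose mean reached 5 CPM. Marker lists are given by their sums.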

Additional observations from a re-analysis of the deposited data

Results flagged for a closer look

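Igfbp2 in the eWAT library of WT TN replicate 23 stood apart from its group, at 31.7 CPM against 4.17 to 7.80 CPM in the other 3. By library totals, that library also had the highest mesothelial marker sum of all eWAT libraries (221.8 CPM), and a hepatocyte sum of 446 CPM, within the range of its group. The part of either in this value was not tested. Igfbp5 in the liver library of WT RT replicate 15 stood apart as well, at 18.2 CPM against 9.49 to 10.5 CPM. Of 96 groups of 4 checked, 2 held such a library, where chance at 1 in 20 gives 4.8.

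The effect of housing differed between tissues for Igf1 (adjusted p = 6.582e-07), Igfbp4 (adjusted p = 0.003708) and Igfbp7 (adjusted p = 0.003738), by the edgeR test of the difference itself. Igf1 rose by 1.83 on the log2 scale in BAT and had changes of -0.14 in liver and -0.08 in eWAT. Fibroblast and macrophage marker sums of BAT also moved with housing, and their part was not tested.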

How the results depend on the processing

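Of the 40 values of single IGF genes that passed the test, 33 passed in every alternative run, among them the rises of Igf1, Igfbp3, Igfbp4 and Igfbp7 in BAT over both genotypes and those of Igf1, Igf1r, Igfbp3 and Igfbp7 in WT BAT. Of the 32 pathway values 21 did. The 3 alternatives chosen after seeing the data were library totals without scaling and BAT without the hepatocyte-rich or without the muscle-rich libraries. The last 2 each left 0 called IGF genes in KO BAT by housing, from 2. Library totals raised the genes whose housing effect differed between tissues from 3 to 6, and turned Igfbp3 between BAT and eWAT from 0.32 to -0.0873 (adjusted p = 0.671). They moved the median of all genes from -0.08 to -0.21 for liver against BAT, from -0.05 to -0.57 for liver against eWAT and from -0.02 to -0.42 for BAT against eWAT.

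Within tissues DESeq2 called as many IGF genes as edgeR or more, and between tissues fewer for BAT against eWAT (6 against 7) and liver against eWAT (9 against 10). In liver by genotype it called 1 at TN and 2 over both housings, and 2 by housing in KO. In BAT by genotype it called 2 at RT and 1 over both housings. In eWAT it called 2 by genotype at RT, 1 at TN, 1 by housing in KO and 2 over both genotypes, and for the genotype effect differing between tissues 1. All of these were 0 by edgeR, and the share of all genes called by DESeq2 is not given here. Using only the 8 libraries compared gave 1 in liver by genotype at TN and 1 in eWAT by genotype at RT. Keeping genes that reached 1 CPM in 4 or more libraries gave 1 in liver by genotype over both housings.

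Leaving out 1 library at a time gave 0 to 1 called genes in liver by genotype at TN and over both housings and by housing in KO and over both genotypes. It gave 0 to 2 in BAT by genotype at RT, 0 to 1 over both housings, and 1 to 3 by housing in KO. In eWAT it gave 0 to 1 by genotype at RT, 0 to 3 over both housings, and 0 to 1 by housing in KO and over both genotypes. For the genotype effect differing between tissues it gave 0 to 1. The eWAT count by genotype was 0 without KO RT replicate 9 or WT RT replicate 18.

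Replicate numbers recur across tissues, always within the same combination of genotype and housing. Same-numbered libraries did not deviate together (median correlation 0.02 over 35 pairs, with 1 pair over 0.1), and 13 of the 35 correlated best with their own number. Correlations between different tissues cannot tell whether same-numbered libraries came from the same mouse. The main model did not pair them and treats the 48 libraries as independent, which would not hold if they did. With the number as a replicate block, 8 IGF genes were called between liver and BAT, 9 between liver and eWAT and 7 between BAT and eWAT, against 8, 10 and 7 without it. Igf2 lost its call against eWAT in both other tissues, and Igfbp3 gained one between BAT and eWAT. Depth limits Igf2, for which 3 counts are 0.0684 to 0.156 CPM, depending on the library.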
